A study of Homo sapiens with 4 samples.

Results

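IL24, IL20 and IL19 are cytokine genes of the interleukin 10 family that lie beside one another on chromosome 1, and IL20RA, IL20RB and IL22RA1 encode the receptor chains through which the 3 cytokines signal. These 6 of the 43622 genes in the deposited expression table were examined in PC3 cells, a human prostate adenocarcinoma line, after RNA sequencing of 12 libraries, 3 in each of 4 conditions. Parental PC3 cells received the solvent DMSO (named Ctrl) or 1 µM MLN4924 (named MLN), and PC3-shp14ARF cells likewise received DMSO (named shARF) or MLN4924 at that dose (named Both), in every case for 3 days. MLN4924 (pevonedistat) inhibits the enzyme that activates NEDD8, a ubiquitin-like protein whose attachment switches on cullin-RING ubiquitin ligases. PC3-shp14ARF cells carry an shRNA against p14ARF, a product of CDKN2A, delivered by retrovirus and followed by Hygromycin selection, and no control shRNA is named for the Ctrl and MLN cells. The series' design text calls the depletion a knockout and writes the dose in mM, whereas the treatment labels and the study's methods describe an shRNA and give µM. IL24 was chosen by its level in these libraries, as the gene with the lowest Both level relative to MLN among genes raised by MLN4924, so its values are given as a description with no test. The other 5 genes were taken with it for their chromosomal position or their receptor role.

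The 3 cytokines act through paired receptor chains of the class II cytokine receptor family. The type I receptor joins IL20RA with IL20RB and binds all 3 ligands, whereas the type II receptor joins IL22RA1 with IL20RB and binds IL20 and IL24 but not IL19. IL22RA1 also pairs with IL10RB to form the receptor for IL22. Ligand binding activates the kinases JAK1 and TYK2 and, in many epithelial cells, the transcription factor STAT3. IL24 was first described as mda-7, a gene induced during melanoma differentiation, and is known for growth-suppressive activity in tumour cells. Transcription factors of the AP-1 and C/EBP families have been described at its promoter.

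IL24 spans chr1:206897443-206904139 on the plus strand of GRCh38 with 7 exons in its canonical transcript, IL20 lies at chr1:206865623-206869223 and IL19 at chr1:206770764-206842981 on the same strand. IL22RA1 is also on chromosome 1, at chr1:24119771-24143140 on the minus strand, IL20RA is at chr6:136999971-137045180 on the minus strand and IL20RB is at chr3:136946230-137011085 on the plus strand. The 250 bases before the transcription start of the 4 members with measurable transcripts are shown because these genes differed in the direction of their MLN4924 response. They were taken from RefSeq promoters on GRCh38.p14 and cover chr1:206897193-206897442 (plus strand) for IL24, chr6:137044966-137045215 (minus) for IL20RA, chr3:136957733-136957982 (plus) for IL20RB and chr1:24143141-24143390 (minus) for IL22RA1. Capitals mark matches to any of 5 motifs searched on both strands, which were AP-1 (TGANTCA), C/EBP (TTGCNNAA), STAT (TTCNNNGAA), TATA (TATANA) and the NF-kB consensus.
IL24: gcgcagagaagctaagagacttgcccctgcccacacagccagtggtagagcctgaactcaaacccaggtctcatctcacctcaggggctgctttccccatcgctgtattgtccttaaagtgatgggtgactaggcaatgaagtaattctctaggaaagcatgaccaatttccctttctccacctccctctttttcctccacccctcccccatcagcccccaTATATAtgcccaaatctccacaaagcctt
IL20RA: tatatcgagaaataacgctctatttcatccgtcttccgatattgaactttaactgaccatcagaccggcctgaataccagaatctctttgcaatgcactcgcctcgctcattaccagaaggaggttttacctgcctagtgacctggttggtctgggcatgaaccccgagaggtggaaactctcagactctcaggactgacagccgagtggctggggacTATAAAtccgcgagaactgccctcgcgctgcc
IL20RB: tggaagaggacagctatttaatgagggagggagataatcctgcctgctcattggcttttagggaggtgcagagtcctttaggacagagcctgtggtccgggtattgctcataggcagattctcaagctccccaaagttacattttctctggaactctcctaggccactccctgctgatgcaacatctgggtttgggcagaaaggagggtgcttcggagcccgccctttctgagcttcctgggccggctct
IL22RA1: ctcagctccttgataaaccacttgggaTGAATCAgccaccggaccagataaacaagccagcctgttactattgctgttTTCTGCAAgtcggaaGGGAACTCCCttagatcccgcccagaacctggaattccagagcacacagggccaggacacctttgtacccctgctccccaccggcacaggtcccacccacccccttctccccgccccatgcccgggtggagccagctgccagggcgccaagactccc
The IL24 window held a TATA match 29 to 24 bases before the start and no match to the other 4 motifs. The IL20RA window likewise held 1 TATA match, 32 to 27 bases before the start, and the IL20RB window held no match to any of them. The IL22RA1 window held an AP-1 match 223 to 217 bases, a C/EBP match on the minus strand 172 to 165 bases and an NF-kB match 157 to 148 bases before the start. Of 35116 promoter windows of this length, 6.57% held the AP-1 letters, 9.05% C/EBP, 6.57% STAT, 17.7% TATA and 9.96% NF-kB. GC content was 51.6% for IL24, 51.2% for IL20RA, 53.6% for IL20RB and 60% for IL22RA1. A match describes these letters only, and the absence of one says nothing about binding of the factor.

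The expression values were TPM, relative transcript abundances that are scaled for transcript length and library and so carry no sequencing depth. How many reads underlie a given value is therefore unknown. CDKN2A was 183 ± 6.49 TPM in Ctrl, 118 ± 16.4 under MLN, 59.3 ± 1.47 for shARF and 47.5 ± 6.40 for Both (SD, n = 3 each), with a log2 fold change of -1.63 for shARF against Ctrl (limma adjusted p = 2.24e-05). The gene table does not separate the p14ARF transcript from the other CDKN2A product. Pearson correlation across genes was 0.982 to 0.988 within groups and 0.820 to 0.958 between groups, and no library stood apart. The summed keratins KRT8, KRT18 and KRT19 ranged from 839 to 938 TPM in Ctrl, 397 to 465 under MLN, 1038 to 1185 for shARF and 406 to 421 for Both. KLK3 was 0 in every library, as known for this line. Of 6 leukocyte markers, CD14 was at most 0.797 TPM, ITGAM at most 0.107 TPM and CD3E at most 0.0558 TPM. PTPRC was at most 0.322 TPM and was higher with MLN4924 in both backgrounds, by 1.62 on the log2 scale for MLN against Ctrl and 1.73 for Both against shARF (limma adjusted p = 0.00449 and 0.00182). The sum over the list, 161 to 230 TPM in Ctrl, 438 to 607 under MLN, 74.1 to 94.9 for shARF and 304 to 344 for Both, was nearly all CD68, a lysosomal protein. The 5 fibroblast and endothelial markers summed to 18.4 to 21.4 TPM in Ctrl, 21.2 to 23.2 under MLN, 10.5 to 12.4 for shARF and 11.5 to 12.6 for Both. That sum hid moves in opposite directions, since for MLN against Ctrl the collagen genes COL1A1 and COL3A1 rose by 1.32 and 2.50 on the log2 scale (limma adjusted p = 0.000124 and 0.000213) and PECAM1, an endothelial adhesion molecule, fell by 4.13 (limma adjusted p = 1.02e-05), from 11.7 to 0.579 TPM. DCN and VWF had group means of at most 0.101 TPM. All of these marker sums, keratins included, moved with the conditions, and their part in the results was not tested.

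IL24 was the only one of the 3 ligands with an appreciable transcript level. The 3 Ctrl libraries held 1.36, 1.38 and 1.42 TPM (mean 1.39 ± 0.0308, SD), and the 3 MLN libraries held 20.5, 24.9 and 26.7 TPM (24.1 ± 3.20). The 3 shARF libraries held 0.0785, 0.0802 and 0.239 TPM (0.132 ± 0.0920), and the 3 Both libraries held 0.590, 0.681 and 0.844 TPM (0.705 ± 0.129). The groups thus stood in the order shARF, Both, Ctrl and MLN with no overlap between any of them, and every Both library lay below every untreated PC3 library. The ratio of group mean TPM was 17.3 for MLN over Ctrl and 5.32 for Both over shARF. The depleted cells had the lower level under either treatment, with a ratio of 10.5 for Ctrl over shARF and 34.1 for MLN over Both. One shARF library, replicate 1 at 0.239 TPM, weighed heavily on the shARF mean. Without it the ratio was 8.89 for Both over shARF and 17.5 for Ctrl over shARF.

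On the log2(TPM + 0.1) scale the IL24 difference was 4.01 (SE 0.12) for MLN against Ctrl and 1.85 (SE 0.32) for Both against shARF. It was -2.75 (SE 0.29) for shARF against Ctrl and -4.91 (SE 0.16) for Both against MLN, and the MLN4924 response in PC3-shp14ARF cells minus that in PC3 cells was -2.16 (SE 0.34). These values depend on the pseudocount, because the shARF level is near 0.1 TPM. With a pseudocount of 0.01 or 1 the Both against shARF value was 2.49 or 0.591, the shARF against Ctrl value was -3.48 or -1.08 and the interaction was -1.60 or -2.79, so that a larger pseudocount made the former differences smaller and the interaction larger. Among 14663 genes averaging 1 TPM or more, IL24 ranked 182 from the top for MLN against Ctrl and 3 from the bottom for Both against MLN. It ranked 816 from the top for Both against shARF and 164 from the bottom for shARF against Ctrl. These ranks describe the selection of the gene and support nothing further.

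IL20, a keratinocyte-associated ligand that binds both receptors, was listed above 0 in 3 of 12 libraries. Its values were 0, 0 and 0.0955 TPM in Ctrl, 0, 0.0962 and 0.188 TPM in MLN, and 0 in all shARF and Both libraries. IL19, the ligand restricted to the type I receptor, was listed at 0 in all 12 libraries. Both had a mean below 0.1 TPM and were not tested, so IL24 and the 3 receptor chains were the 4 of 6 members that passed the filter on low values. IL10, the founding member of the family and a neighbour of IL19, was also listed at 0 in every library.

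**Figure D1:**
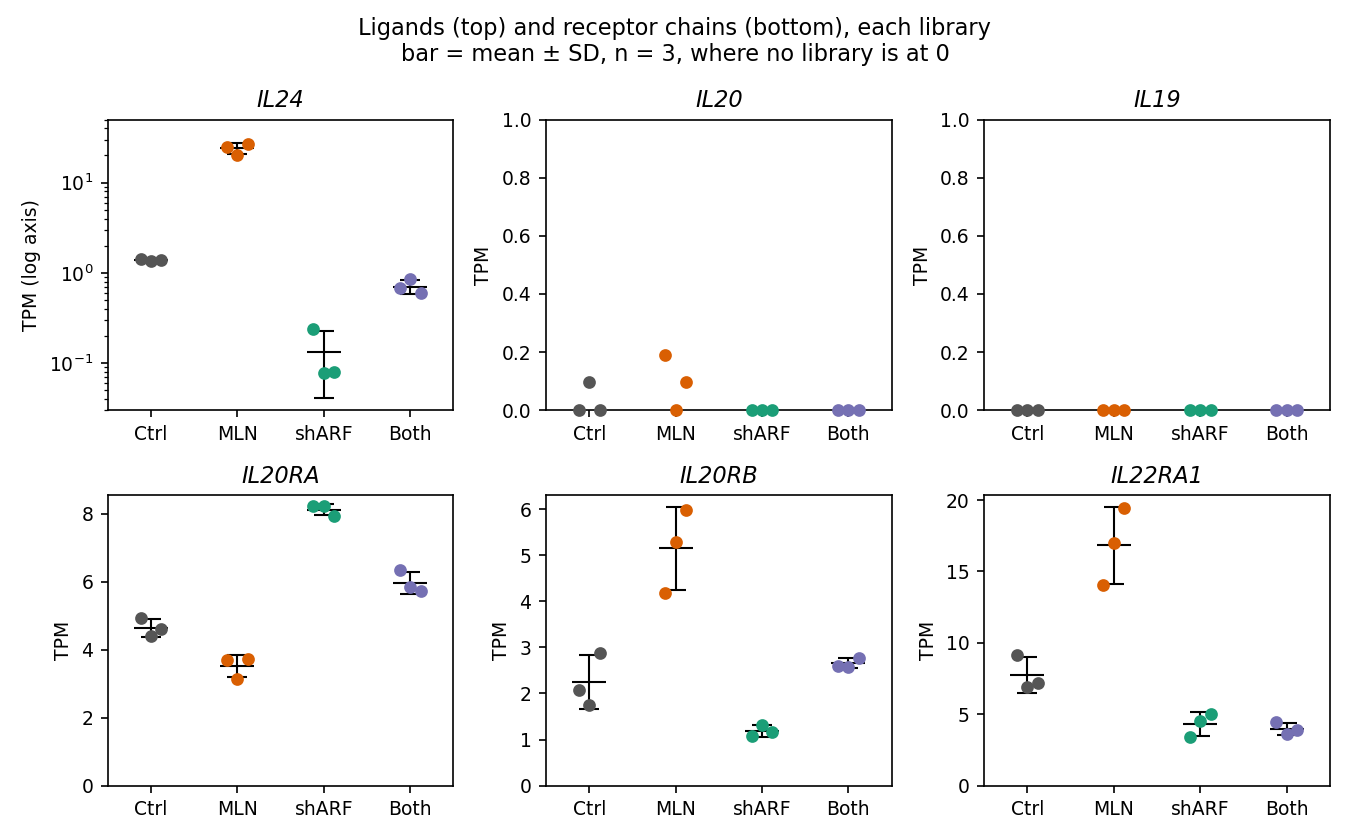
TPM of the 3 ligands and 3 receptor chains in each of the 12 libraries, grouped by condition on the horizontal axis, with a logarithmic vertical axis for IL24 and linear axes for the others; bars give the mean ± SD (n = 3) where no library is at 0. IL24 lies at 20.5 to 26.7 TPM in MLN and below 1 TPM in both PC3-shp14ARF groups, IL19 is at 0 throughout, and IL20RA has its highest values in shARF, where IL24 has its lowest.

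Part of the IL24 transcript shares its genomic position with FCMR, which encodes an Fc receptor for IgM known mainly from lymphocytes. FCMR lies on the opposite strand at chr1:206903317-206923247, and 823 exonic bases overlap, which is 41.65% of the IL24 and 27.79% of the FCMR canonical transcript. The sources used here do not say whether the reads were counted by strand, so reads in the overlap cannot be told apart. FCMR was 0.436 ± 0.208 TPM in Ctrl, 3.82 ± 0.551 under MLN, 0.134 ± 0.0675 for shARF and 0.426 ± 0.203 for Both (SD, n = 3 each). Its log2 fold change was 2.93 (SE 0.31, limma adjusted p = 0.000355) for MLN against Ctrl and -2.96 (SE 0.31, limma adjusted p = 0.00176) for Both against MLN. FCMR thus rose and fell in the same directions as IL24, at lower TPM in all group means but that of shARF, where the 2 genes were at 0.134 and 0.132 TPM.

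The 3 receptor chains were all expressed and were compared with limma on log2(TPM + 0.1), with Benjamini-Hochberg adjustment over the 19932 genes averaging 0.1 TPM or more and a call at an adjusted p below 0.05. Because nothing states that the 3 libraries of a group came from separate cultures, these p-values measure the spread between libraries, which may be technical. In these bulk cultures, fewer cells expressing a gene and less RNA per cell cannot be told apart. The first comparison asked how the receptor chains responded to MLN4924 in PC3 cells. IL20RB and IL22RA1, the chains of the type II receptor, rose and IL20RA fell, so that 2 of 3 were higher and 1 of 3 lower. Of all genes tested, 32.2% were higher and 29.4% lower in this comparison.

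IL22RA1, the ligand-binding chain shared by the IL20, IL24 and IL22 receptors, was the most abundant of the 3 in PC3 cells. It was 6.90, 7.17 and 9.16 TPM in Ctrl (7.74 ± 1.24, SD) and 14.0, 17.0 and 19.5 TPM in MLN (16.8 ± 2.72). The groups did not overlap, and the log2 fold change was 1.11 (SE 0.16, limma adjusted p = 0.00142). IL20RB, the chain common to both receptors, was 1.75, 2.09 and 2.89 TPM in Ctrl (2.24 ± 0.583) and 4.18, 5.29 and 5.98 TPM in MLN (5.15 ± 0.908). Every MLN library again exceeded every Ctrl library, with a log2 fold change of 1.18 (SE 0.22, limma adjusted p = 0.00452). IL20RA, the partner of IL20RB in the type I receptor, was 4.40, 4.59 and 4.92 TPM in Ctrl (4.64 ± 0.266) and 3.15, 3.68 and 3.73 TPM in MLN (3.52 ± 0.324). It was lower in all 3 MLN libraries, by a log2 fold change of -0.39 (SE 0.11, limma adjusted p = 0.0215). This call rested on few libraries, since the adjusted p was 0.064 without Ctrl replicate 1, 0.0592 without Ctrl replicate 3 and 0.0562 without MLN replicate 2, within a range of 0.00314 to 0.149 over its 14 alternatives.

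In PC3-shp14ARF cells the same treatment raised IL20RB, lowered IL20RA and left no detectable difference in IL22RA1. Thus 1 of 3 chains was higher and 1 of 3 lower, where 28.3% of all genes tested were higher and 32.8% lower. IL20RB was 1.08, 1.16 and 1.32 TPM in shARF (1.19 ± 0.122, SD) and 2.58, 2.60 and 2.78 TPM in Both (2.65 ± 0.107), a log2 fold change of 1.10 (SE 0.13, limma adjusted p = 0.000615). IL20RA was 7.92, 8.21 and 8.22 TPM in shARF (8.12 ± 0.172) and 5.71, 5.84 and 6.33 TPM in Both (5.96 ± 0.326), a log2 fold change of -0.44 (SE 0.069, limma adjusted p = 0.0021). For each of these chains the treated and untreated libraries did not overlap. IL22RA1 was 3.38, 4.55 and 4.99 TPM in shARF (4.31 ± 0.836) and 3.58, 3.86 and 4.44 TPM in Both (3.96 ± 0.438). These groups overlapped, and the log2 fold change was -0.10 (SE 0.17, 95% confidence interval -0.53 to 0.32, limma adjusted p = 0.628).

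The interaction, the MLN4924 response in PC3-shp14ARF cells minus that in PC3 cells over all 12 libraries, was negative for IL22RA1 at -1.21 on the log2 scale (SE 0.24, 95% confidence interval -1.73 to -0.69, limma adjusted p = 0.00258). It was -0.075 for IL20RB (SE 0.26, 95% confidence interval -0.65 to 0.50, limma adjusted p = 0.868) and -0.049 for IL20RA (SE 0.13, 95% confidence interval -0.34 to 0.24, limma adjusted p = 0.826). Hence 0 of 3 chains had a higher and 1 of 3 a lower response in the depleted cells, where 11.2% of all genes tested had a higher and 17.1% a lower response. For IL20RA and IL20RB the intervals hold the size of difference that these libraries could have missed. The rise of IL20RB with MLN4924 was thus measured in both backgrounds, and that of IL22RA1 in PC3 cells alone, with a difference between backgrounds that passed the test.

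**Figure D2:**
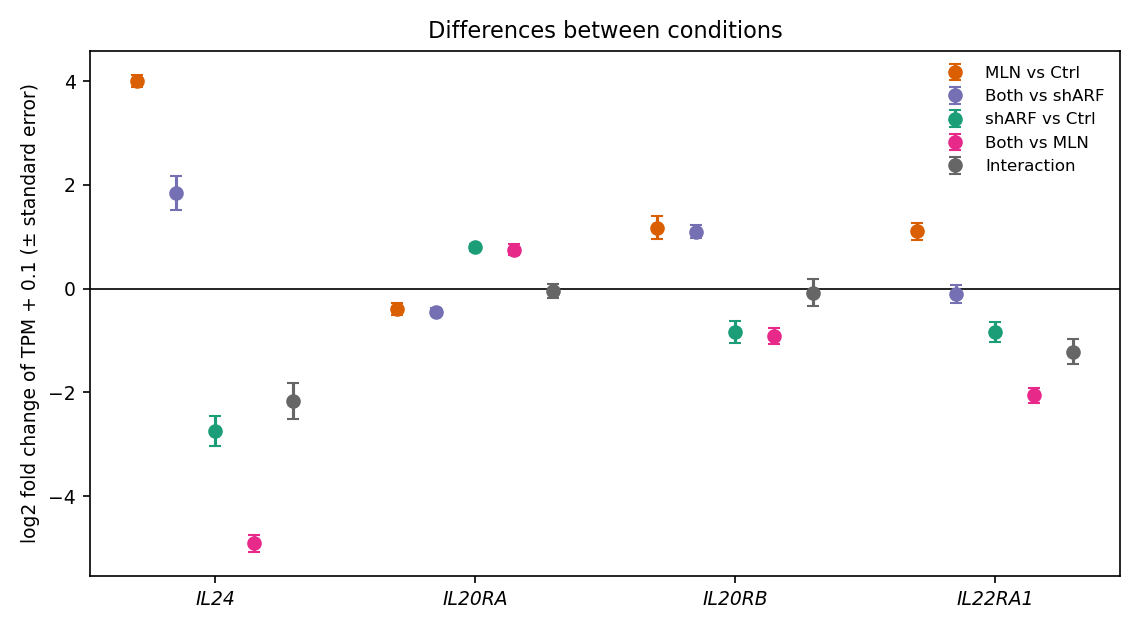
Log2 fold changes (points, on the log2(TPM + 0.1) scale) with standard errors (bars) of IL24 and the 3 receptor chains in 4 pairwise comparisons and the interaction; positive values are higher in the condition named first. IL20RA takes the opposite sign to the other 3 genes in the comparisons of MLN with Ctrl, shARF with Ctrl and Both with MLN, and IL22RA1 lies near 0 for Both against shARF.

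Depletion of p14ARF without MLN4924 raised IL20RA and lowered IL20RB and IL22RA1, with 1 of 3 chains higher and 2 of 3 lower, beside 21.0% and 20.4% of all genes tested. IL20RA rose from 4.40 to 4.92 TPM in Ctrl to 7.92 to 8.22 TPM in shARF, a log2 fold change of 0.80 (SE 0.064, limma adjusted p = 0.000697). IL20RB and IL22RA1 both changed by -0.84 on the log2 scale, with an SE of 0.21 and limma adjusted p = 0.0284 for IL20RB and an SE of 0.19 and limma adjusted p = 0.0202 for IL22RA1. In each case all shARF libraries lay below all Ctrl libraries. These 2 calls were narrow. For IL20RB the adjusted p was 0.0657 without Ctrl replicate 1 and 0.0896, 0.0587 and 0.0829 without shARF replicates 1, 3 and 5, within a range of 0.00303 to 0.0969 over 14 alternatives. For IL22RA1 it was 0.0526 without Ctrl replicate 1, 0.054 without Ctrl replicate 3 and 0.0527 without shARF replicate 3, within a range of 0.00155 to 0.157, and the number of chains called was 1 without Ctrl replicate 1 or shARF replicate 3.

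Between the MLN4924-treated groups, IL20RA was higher and the other 2 chains were lower in the depleted cells, so that 1 of 3 was higher and 2 of 3 lower, beside 11.8% and 20.6% of all genes tested. IL22RA1 had the largest fall of the 3, a log2 fold change of -2.05 (SE 0.15, limma adjusted p = 0.000621), from 14.0 to 19.5 TPM in MLN to 3.58 to 4.44 TPM in Both. IL20RB fell by 0.92 on the log2 scale (SE 0.15, limma adjusted p = 0.00726), and its Both values of 2.58 to 2.78 TPM overlapped the Ctrl values of 1.75 to 2.89 TPM. IL20RA rose by 0.75 on the log2 scale (SE 0.11, limma adjusted p = 0.00452). The comparisons of Both and of Ctrl with MLN share the MLN libraries, so their opposite signs for a gene are not independent of each other.

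Across all 4 groups IL20RA stood in the order MLN, Ctrl, Both and shARF, with no overlap between neighbours. IL20RB stood in the order shARF, Ctrl, Both and MLN, with Ctrl and Both overlapping, and IL22RA1 in the order Both, shARF, Ctrl and MLN, with Both and shARF overlapping. The ratio of IL22RA1 to IL20RA in TPM, a measure chosen after the values were seen and given without a test, was 1.56, 1.57 and 1.86 in Ctrl and 3.81, 5.22 and 5.40 in MLN. It was 0.411, 0.554 and 0.630 in shARF and 0.613, 0.676 and 0.702 in Both. IL22RA1 therefore exceeded IL20RA in TPM in all 6 PC3 libraries and was below it in all 6 PC3-shp14ARF libraries. IL20RB was below IL22RA1 in every library, with a mean ratio of 0.295 in Ctrl, 0.305 under MLN, 0.281 for shARF and 0.675 for Both.

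**Figure D3:**
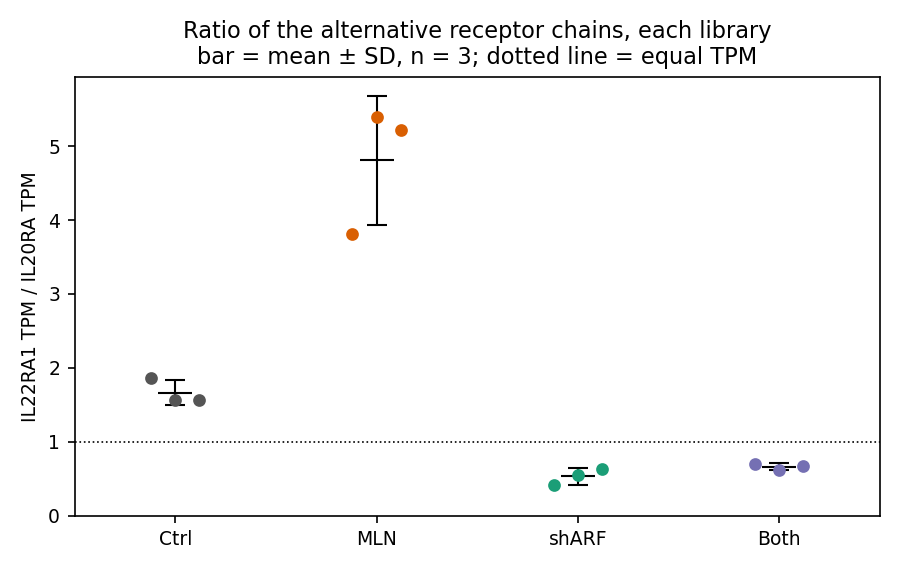
Ratio of IL22RA1 TPM to IL20RA TPM in each of the 12 libraries by condition, on a linear axis; bars give the mean ± SD (n = 3) and the dotted line marks equal TPM. The PC3 libraries lie at 1.56 to 5.40 and the PC3-shp14ARF libraries at 0.411 to 0.702.

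Other protein-coding genes that start within 500 kb of the IL24 start were described to see how the surrounding interval behaved. There were 17 such genes, of which 11 were tested, and for MLN against Ctrl 7 rose and 2 fell, where 32.2% of all genes tested rose and 29.4% fell, with a median log2 fold change of 0.77 beside 0.052 over all genes. The largest rise of these was in C1orf116, known as an androgen-regulated gene, which went from 4.46 to 74.9 TPM in group means (log2 fold change 4.05, SE 0.14, limma adjusted p = 8.13e-06). YOD1, a deubiquitinating enzyme, rose by 2.18 (SE 0.080, limma adjusted p = 9.01e-06) and DYRK3, a protein kinase, by 1.26 (SE 0.051, limma adjusted p = 1.17e-05) on the same scale. IKBKE, a kinase of the innate immune response, fell by 2.03 (SE 0.10, limma adjusted p = 2.19e-05), so that the interval did not move in a single direction. FCMR, whose reads in the overlap cannot be told from those of IL24, is among the 11 tested and the 7 that rose. FCMR is also among the neighbours called lower for Both against MLN, so these counts may not be independent of IL24.

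For Both against MLN, 2 of the 11 tested neighbours were higher and 7 lower, where 11.8% of all genes were higher and 20.6% lower, with a median log2 fold change of -0.47 beside -0.080. The 2 higher calls, of EIF2D and CD55, were both lost without MLN replicate 2, Both replicate 2 or Both replicate 3. Without MLN replicate 5 or Both replicate 4, 1 of them was left. The 7 lower calls became 4 without Both replicate 3 and 5 without any 1 of the other libraries. C1orf116 was 54.2 TPM in Both and 74.9 TPM in MLN, a log2 fold change of -0.47 (SE 0.093, limma adjusted p = 0.0137). Leaving out MLN replicate 2 or Both replicate 3 ended this call (adjusted p 0.00358 to 0.0555 over 13 alternatives). DYRK3 fell by 1.00 (SE 0.047, limma adjusted p = 0.000289) and IKBKE by 2.29 (SE 0.13, limma adjusted p = 0.000431). These 2 genes were also lower without MLN4924, for shARF against Ctrl by 1.31 (SE 0.085, limma adjusted p = 0.000381) and 2.75 (SE 0.10, limma adjusted p = 8.63e-05). For Both against shARF, DYRK3 rose by 1.56 (SE 0.082, limma adjusted p = 2.54e-05) and IKBKE fell by 1.56 (SE 0.14, limma adjusted p = 0.000183). The calls of YOD1 and PFKFB2 were lost in 9 and 8 of 13 alternatives. MLN4924 raised 6 neighbours and lowered 2 in PC3-shp14ARF cells (28.3% and 32.8% of all genes), depletion alone raised 3 and lowered 4 (21.0% and 20.4%), and in the interaction 2 were higher and 6 lower (11.2% and 17.1%). The higher count in the interaction was 0 without Ctrl replicate 1 or Both replicate 2, and 1 without Ctrl replicate 3, any MLN replicate, shARF replicate 3 or Both replicate 3.

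**Figure D4:**
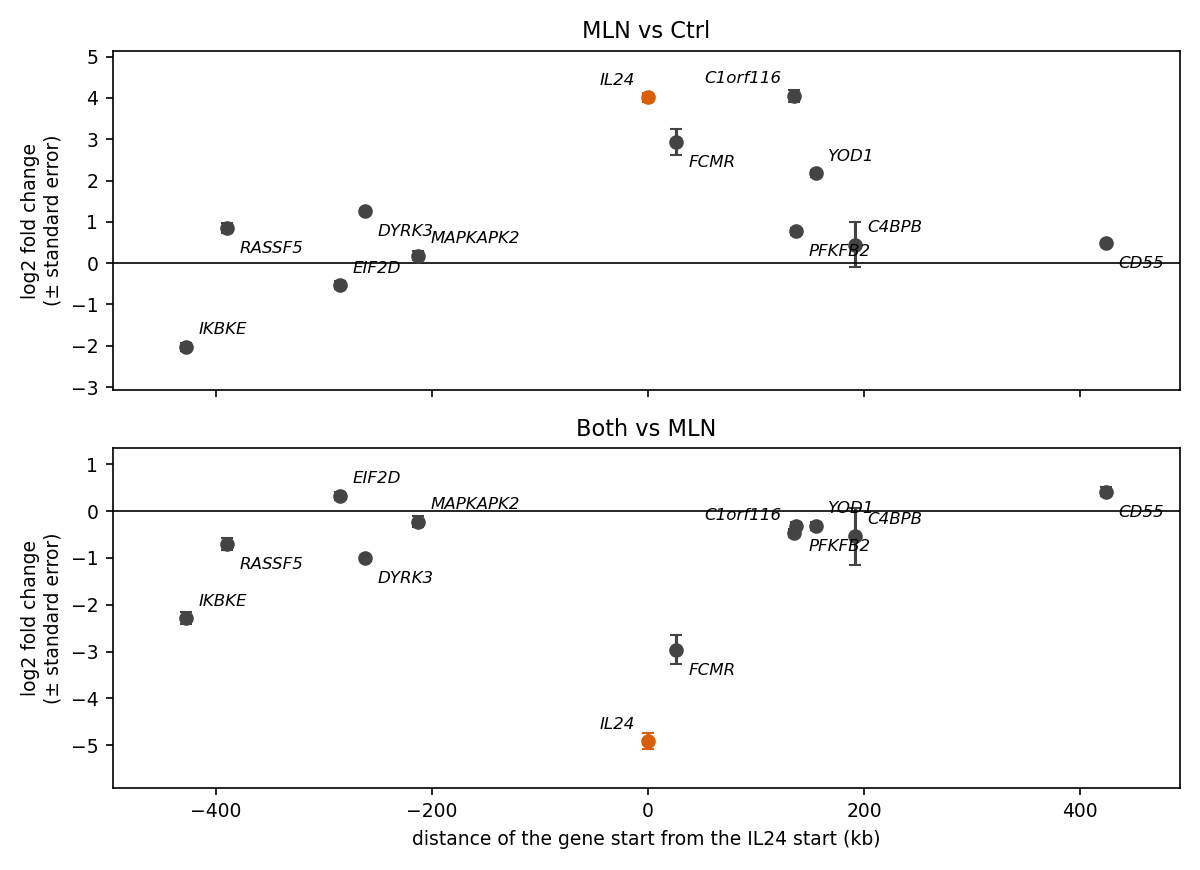
Log2 fold changes with standard errors of IL24 and the tested genes that start within 500 kb of it, against the distance of their start from the IL24 start in kilobases. IL24, FCMR and C1orf116 have the highest values for MLN against Ctrl, and IL24 and FCMR the lowest for Both against MLN.

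The remaining ligands of the family and the related receptor chains were read from lists drawn up from general knowledge. Of 6 other ligands, IL10, IL22 and IFNL3 were listed at 0 in every library, IL26 was at most 0.280 TPM and IFNL2 at most 0.215 TPM. IFNL1, an antiviral lambda interferon at 0 to 0.556 TPM, was the 1 tested and passed the limma test in none of the comparisons, although 1 or 2 alternatives called it in each (adjusted p 0.005 to 0.317 over 13 alternatives for MLN against Ctrl). Of 8 other class II receptor chains 6 were tested. For MLN against Ctrl 4 rose and 2 fell, beside 32.2% and 29.4% of all genes (median log2 fold change 0.32 against 0.052), and for Both against MLN 0 rose and 4 fell, beside 11.8% and 20.6% (median -0.43 against -0.080). Without Both replicate 4, 1 of them was higher in the latter comparison. IL10RB, which joins IL22RA1 in the IL22 receptor, was 15.3 to 15.5 TPM in Ctrl, 20.3 to 21.4 under MLN, 12.7 to 14.9 for shARF and 12.4 to 15.2 for Both. Its log2 fold change was 0.42 (SE 0.048, limma adjusted p = 0.000541) for MLN against Ctrl and -0.55 (SE 0.089, limma adjusted p = 0.00684) for Both against MLN. IFNLR1, the lambda interferon receptor chain, stood at 17.5 TPM in Ctrl, 40.3 in MLN, 11.2 for shARF and 28.4 for Both, with log2 fold changes of 1.20 (SE 0.062, limma adjusted p = 2.49e-05) and, against MLN, -0.50 (SE 0.070, limma adjusted p = 0.00421). It rose by 1.34 for Both against shARF (SE 0.056, limma adjusted p = 1.21e-05), and its interaction was 0.14 (SE 0.091, limma adjusted p = 0.288). IFNGR1, a chain of the interferon gamma receptor, rose by 0.99 (SE 0.096, limma adjusted p = 0.000262) and its partner IFNGR2 fell by 0.95 (SE 0.059, limma adjusted p = 4.67e-05) with MLN4924 in PC3 cells. Comparing Both with shARF, 3 chains rose and 2 fell (28.3% and 32.8% of all genes), for shARF against Ctrl 0 rose and 4 fell (21.0% and 20.4%), and in the interaction 1 was higher and 1 lower (11.2% and 17.1%). The lower one was IL10RB, whose call was lost in 11 of 19 alternatives, among them the fits without any 1 of the 3 Ctrl or 3 MLN libraries, shARF replicate 1 or Both replicate 4.

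STAT3, the factor usually activated by these receptors, was listed at 0 in 9 of 12 libraries and was at most 0.0355 TPM, and STAT5A and STAT5B were listed at 0 in all. PC3 cells are known to lack STAT3. Of 11 JAK kinases and STATs 8 were tested, and for MLN against Ctrl 3 rose and 3 fell (median log2 fold change -0.17 against 0.052 over all genes), and for Both against MLN 1 rose and 2 fell (median -0.070 against -0.080). These shares are near those of all genes, 32.2% and 29.4% in the former comparison and 11.8% and 20.6% in the latter. JAK1, the kinase bound by IL20RA and IL22RA1, was 77.7 TPM in Ctrl, 51.4 under MLN, 52.6 for shARF and 54.3 for Both. Its log2 fold change for MLN against Ctrl was -0.60 (SE 0.059, limma adjusted p = 0.000278). TYK2 was 71.5, 55.7, 72.6 and 53.9 TPM in the same order, and its fall with MLN4924 in PC3 cells of -0.35 (SE 0.088, limma adjusted p = 0.0137) was lost without MLN replicate 1 (adjusted p 0.00288 to 0.161 over 14 alternatives). STAT2, which carries type I and lambda interferon signals, rose from 43.3 to 48.0 TPM in Ctrl to 228 to 254 TPM in MLN (log2 fold change 2.42, SE 0.062, limma adjusted p = 3.59e-06) and was 48.5 to 57.6 TPM in shARF and 146 to 157 TPM in Both. Among the 8, 4 rose and 3 fell for Both against shARF (28.3% and 32.8% of all genes), for shARF against Ctrl 2 rose and 2 fell (21.0% and 20.4%), and in the interaction 2 were higher and 3 lower (11.2% and 17.1%).

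All 10 listed inhibitors of JAK-STAT signalling were tested. For MLN against Ctrl 4 rose and 5 fell, where 32.2% and 29.4% of all genes did (median log2 fold change -0.39 against 0.052), and for Both against MLN 2 rose and 6 fell, where 11.8% and 20.6% did (median -0.66 against -0.080). The count of 2 was 1 without MLN replicate 2, Both replicate 2 or Both replicate 3, PTPN11 keeping its call and PIAS1 losing it. SOCS3, a feedback inhibitor that STAT3 is known to induce, was 36.7 to 43.0 TPM in Ctrl, 60.4 to 68.1 under MLN, 20.9 to 23.9 for shARF and 27.6 to 28.5 for Both, with no overlap between groups. Its log2 fold change was 0.72 for MLN against Ctrl (SE 0.079, limma adjusted p = 0.00043) and -1.20 for Both against MLN (SE 0.057, limma adjusted p = 0.000294), and its interaction was -0.38 (SE 0.11, limma adjusted p = 0.0178). CISH, another inhibitor of the SOCS family, was 0.981 to 1.16 TPM in Ctrl, 3.55 to 4.31 under MLN, 0.821 to 1.17 for shARF and 1.40 to 1.60 for Both. It rose by 1.83 with MLN4924 in PC3 cells (SE 0.14, limma adjusted p = 9.97e-05) and was lower by -1.33 in Both than in MLN (SE 0.13, limma adjusted p = 0.00151). SOCS2, known from growth hormone signalling, was 24.6 TPM in Ctrl, 7.57 under MLN, 3.36 for shARF and 2.20 for Both. It fell by 1.69 for MLN against Ctrl (SE 0.076, limma adjusted p = 1.6e-05) and by 1.76 for Both against MLN (SE 0.19, limma adjusted p = 0.00188). PTPN11, a phosphatase that also promotes growth factor signalling, fell by 0.65 and then stood higher by 0.65 in the same comparisons (SE 0.053 and 0.060, limma adjusted p = 0.000128 and 0.00132). For Both against shARF 3 inhibitors rose and 5 fell (28.3% and 32.8% of all genes), for shARF against Ctrl 1 rose and 3 fell (21.0% and 20.4%), and in the interaction 2 were higher and 4 lower (11.2% and 17.1%). The 1 rise with depletion was lost without Ctrl replicate 2 or 3 or shARF replicate 1 or 3.

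**Figure D5:**
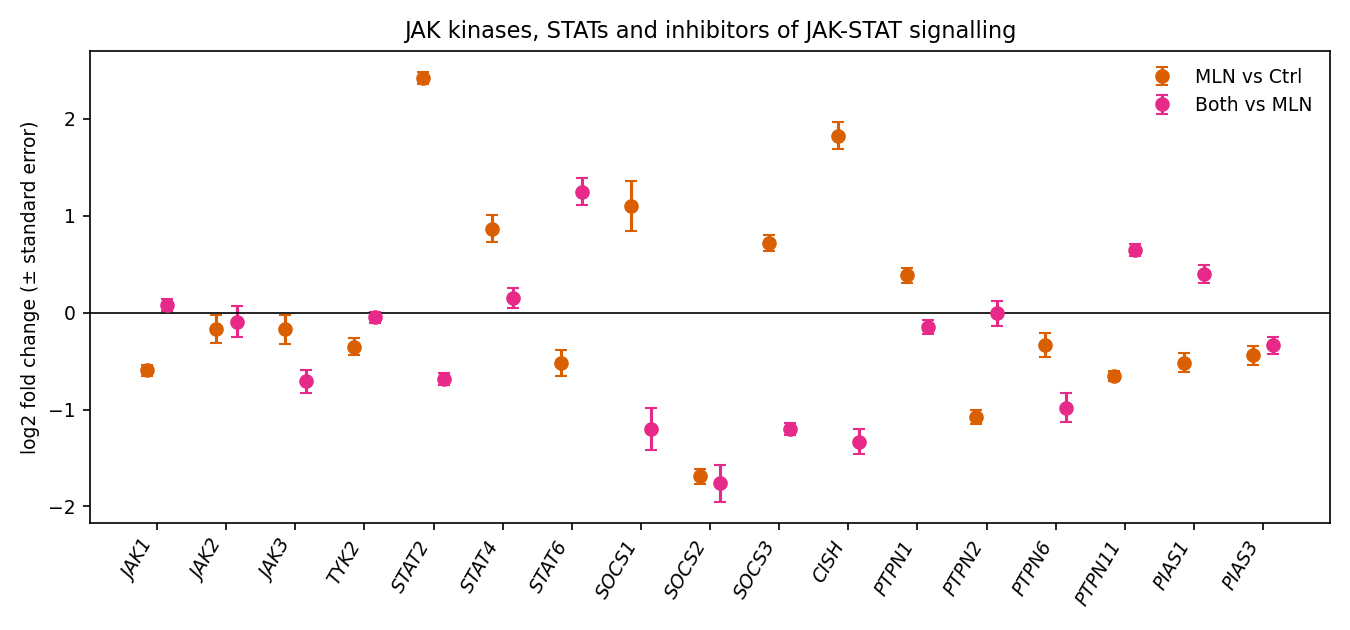
Log2 fold changes (points) with standard errors (bars) of tested JAK kinases, STATs and inhibitors of JAK-STAT signalling for MLN against Ctrl and for Both against MLN. STAT2 has the highest value for MLN against Ctrl at 2.42, and SOCS3 and CISH are positive for MLN against Ctrl and negative for Both against MLN.

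All 10 transcription factors listed for the IL24 promoter were tested. For MLN against Ctrl 6 rose and 2 fell, set against 32.2% and 29.4% of all genes (median log2 fold change 0.93 against 0.052), and for Both against MLN 0 rose and 5 fell, set against 11.8% and 20.6% (median -0.36 against -0.080). The 2 falls became 1 without Ctrl replicate 1 or 3 or MLN replicate 1 or 2. The 5 became 3 without Both replicate 3 and 2 when Both replicate 2 or either of MLN replicates 2 and 5 was left out. No fit without a library kept all 5, and the highest count was 4. FOSB, an AP-1 subunit, was 1.07 to 1.38 TPM in Ctrl, 7.73 to 8.50 under MLN, 0.800 to 0.923 for shARF and 3.34 to 4.29 for Both. Its log2 fold change was 2.70 (SE 0.13, limma adjusted p = 2.02e-05) for MLN against Ctrl and -1.05 (SE 0.12, limma adjusted p = 0.00216) for Both against MLN. FOS was 0.393 TPM in Ctrl, 4.50 under MLN, 0.389 for shARF and 1.46 for Both, with log2 fold changes of 3.21 (SE 0.26, limma adjusted p = 0.000127) and, against MLN, -1.55 (SE 0.23, limma adjusted p = 0.00543). CEBPB, a C/EBP factor of inflammatory gene expression, rose by 1.34 with MLN4924 in PC3 cells (SE 0.045, limma adjusted p = 7.43e-06) and CEBPD fell by 2.65 (SE 0.21, limma adjusted p = 0.000125). CEBPB, JUNB and CEBPD were called lower in Both than in MLN, and these calls were lost in 5, 5 and 6 of 13 alternatives. For Both against shARF 7 factors rose and 1 fell, or 2 fell without shARF replicate 3 (28.3% and 32.8% of all genes), for shARF against Ctrl 2 rose and 4 fell (21.0% and 20.4%), and in the interaction 4 were higher and 5 lower (11.2% and 17.1%).

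The genes whose levels over the 12 libraries were most like those of IL24 were sought among 14662 genes averaging 1 TPM or more, by Pearson correlation of log2(TPM + 0.1). They were UGCG, the glucosylceramide synthase (r = 0.987), THSD1, a thrombospondin domain protein (0.982), COL1A1, a collagen chain that is also among the fibroblast markers (0.981), NEU1, a lysosomal sialidase (0.981), and VPS26A, a retromer subunit (0.980). UGCG was 28.7 to 29.8 TPM in Ctrl, 44.7 to 47.3 under MLN, 19.5 to 21.1 for shARF and 22.3 to 24.9 for Both, the group order of IL24 over a narrower range. For IL20RB the leading genes included COX19, a cytochrome oxidase assembly factor (0.982), C6orf132 (0.981), SP6 (0.977) and C8orf58 (0.977). These correlations are descriptions over 12 libraries that fall into 4 groups, so they mostly rank how alike the 4 group levels are.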

How the data were processed

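RNA of PC3 and PC3-shp14ARF cells was sequenced by the authors, and the submitters' processing notes name Qiagen CLC Genomics Workbench 23.0.5, hg38 and Ensembl annotation 112. The deposited table, made by the authors, gives TPM per gene, which is scaled for length and library and keeps no read depth, so no count model was used. Strandedness is not given in the sources used here. The labels name 1 sample per condition and the table holds 3 columns for each, taken as replicate libraries by their column names. The meaning of the replicate numbers is not given.

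From these values, log2(TPM + 0.1) was fitted with limma 3.58.1 in R 4.3.3 (empirical Bayes with trend, two-sided) for the 19932 of 43622 genes averaging 0.1 TPM or more. Each of 4 pairwise comparisons used its 6 libraries and the interaction all 12, with p-values adjusted over the full set of tested genes by Benjamini-Hochberg and a threshold of 0.05. Fold changes on this scale understate those of low genes. The study compared groups with a count tool, which TPM does not allow. With 3 against 3 libraries an exact permutation test of a single gene cannot go below p = 0.1.

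The members and gene lists were chosen with earlier results of these data known. Named in the text are CDKN2A, the members, IL24 neighbours within 500 kb, up to 4 members of each list averaging 1 TPM or more and having the smallest adjusted p, JAK1, TYK2, STAT3 and SOCS3, and the 5 genes most correlated with IL24 and with IL20RB. A few others are named beside their counts after their values were seen. Gene positions are those of GENCODE 44 on GRCh38, another release than that of the authors. Promoter windows are from RefSeq (GRCh38.p14). Alternatives were other pseudocounts, filters, scaling, limma without trend, a replicate block and leaving out each library. A few genes that this rule or the lists would name are not reported here.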

Additional observations from a re-analysis of the deposited data

Results flagged for a closer look

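The MLN4924 response of IL22RA1 differed between the cell backgrounds. The log2 fold change in PC3-shp14ARF cells minus that in PC3 cells was -1.21 (SE 0.24, limma adjusted p = 0.00258 over the 12 libraries), with all 3 MLN libraries above all 3 Ctrl libraries and with overlapping shARF and Both libraries. The value ranged from -1.38 to -1.01 over 19 alternatives, and its adjusted p from 0.00124 to 0.0637.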

How the results depend on the processing

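Of 219 alternative values of the receptor chains, 202 kept their side of the threshold, 17 lost their call and 0 reversed a called direction. Values that were not called could change sign. They ranged from -0.266 to 0.00897 for IL22RA1 in Both against shARF. In the interaction they ranged from -0.126 to 0.0843 for IL20RA and from -0.265 to 0.0787 for IL20RB. Of 73 alternative values of IL24, 9 moved by more than the spread between replicates and 0 reversed. With a pseudocount of 1, the IL24 log2 fold change was 3.38 for MLN against Ctrl, 0.591 for Both against shARF, -1.08 for shARF against Ctrl and -3.87 for Both against MLN, and its interaction was -2.79. With a pseudocount of 0.01, it was 2.49 for Both against shARF and -3.48 for shARF against Ctrl, and its interaction was -1.60. When each library was left out in turn, the IL24 interaction ranged from -2.32 to -1.86, IL20RA for MLN against Ctrl from -0.433 to -0.314, and for shARF against Ctrl IL20RB ranged from -0.995 to -0.651, IL22RA1 from -0.952 to -0.676 and the number of chains called from 1 to 3. Libraries sharing a replicate number had deviations from their group means that correlated at -0.147 to 0.063. With 3 libraries per group, these values cannot show whether such libraries had a culture or preparation in common. With a replicate block, the values for MLN against Ctrl were -0.439 for IL20RA (limma adjusted p = 0.149), 1.25 for IL20RB (0.0571) and 0.949 for IL22RA1 (0.0792), with 0 chains called. With the block, the values for shARF against Ctrl were 0.777 for IL20RA (limma adjusted p = 0.0697), -0.98 for IL20RB (0.0969) and -1.03 for IL22RA1 (0.157), again with 0 chains called, and the IL22RA1 interaction was -1.01 (0.0637), with 0 called. Over all genes, limma with the block called 5708 for MLN against Ctrl, 0 for shARF against Ctrl (7757 at an unadjusted p below 0.05) and 3105 for the interaction, where without it 12283, 8251 and 5645 were called. In a pairwise fit of 6 libraries the block uses up most of the residual degrees of freedom. A library whose number has no partner in the other group then adds nothing to the contrast. Lost power and a replicate effect therefore cannot be told apart in the calls that the block ended. For MLN against Ctrl the block also ended the calls of SOCS3 (limma adjusted p = 0.0589), IL10RB (0.0738), JAK1 (0.051) and TYK2. In the interaction it ended those of SOCS3 (limma adjusted p = 0.215) and IL10RB. The block was not fitted for Both against shARF or Both against MLN, which share 1 number each. Dividing by median-of-ratios size factors shifted the median of all genes by at most 0.096. TPM gives no depth, so the counting error behind IL24 in shARF and behind IL20 and IL19 is unknown.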

Other observations

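Genes described for the intracellular action of IL24 and its stress response were read from a list of 8, of which 7 were tested. For MLN against Ctrl 4 rose and 3 fell, beside 32.2% and 29.4% of all genes (median log2 fold change 0.64 against 0.052), and for Both against MLN 0 rose and 2 fell, beside 11.8% and 20.6% (median -0.13 against -0.080). The 2 falls were those of GADD45A and GADD45B, and GADD45B lost its call without MLN replicate 2, Both replicate 2 or Both replicate 3. GADD45A, a growth arrest gene induced by DNA damage, rose from 90.5 to 97.9 TPM in Ctrl to 430 to 511 TPM in MLN, a log2 fold change of 2.28 (SE 0.078, limma adjusted p = 7.66e-06). It was 115 to 123 TPM in shARF and 271 to 327 TPM in Both, the latter a log2 fold change of -0.63 against MLN (SE 0.10, limma adjusted p = 0.00652). DDIT3, a transcription factor of the unfolded protein response, rose by 2.19 in MLN against Ctrl (SE 0.11, limma adjusted p = 2.34e-05) and differed by -0.16 between Both and MLN (SE 0.10, limma adjusted p = 0.277). With MLN4924 in PC3-shp14ARF cells 4 rose and 2 fell (28.3% and 32.8% of all genes), for shARF against Ctrl 2 rose and 1 fell (21.0% and 20.4%), and in the interaction 1 was higher and 3 lower (11.2% and 17.1%).

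All 7 listed RNA-binding proteins that act on cytokine mRNA decay were tested. For MLN against Ctrl 2 rose and 3 fell (median log2 fold change 0.024 against 0.052 over all genes), and for Both against MLN 0 rose and 2 fell (median -0.17 against -0.080). These shares are near the 32.2% and 29.4% of all genes in the former comparison and the 11.8% and 20.6% in the latter. The 2 falls were those of ZFP36 and ZFP36L2, and ZFP36L2 lost its call in 7 of 13 alternatives, among them those without MLN replicate 2 or 5 or any 1 of the 3 Both libraries. Without MLN replicate 1, 1 rose and 4 fell. ZC3H12A, an endonuclease that degrades cytokine mRNA, was 174 to 229 TPM in Ctrl, 36.1 to 43.0 in MLN, 3.58 to 5.44 in shARF and 33.1 to 35.6 in Both. MLN4924 lowered it in PC3 cells (log2 fold change -2.30, SE 0.12, limma adjusted p = 2.53e-05), and the response in PC3-shp14ARF cells minus that in PC3 cells was 5.15 (SE 0.20, limma adjusted p = 1.26e-08). ZFP36, which binds AU-rich elements and promotes mRNA decay, rose by 2.66 for MLN against Ctrl (SE 0.24, limma adjusted p = 0.000191) and fell by 0.54 for Both against MLN (SE 0.053, limma adjusted p = 0.00145). With MLN4924 in PC3-shp14ARF cells 3 rose and 4 fell (28.3% and 32.8% of all genes), for shARF against Ctrl 3 rose and 1 fell (21.0% and 20.4%), and in the interaction 1 was higher and 4 lower (11.2% and 17.1%), or 2 lower without MLN replicate 5.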
